A study of Mus musculus with 3 samples.

Results

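A population of myeloid cells of aortic digests, with transcripts of Prg4, Alox15 and Saa3, was examined in mice with and without myeloid Jak2V617F. A cell barcode belonged to it when its most abundant hashtag had at least 3 times the UMIs of the next, at most 10% of its gene UMIs were mitochondrial, it had at least 3000 gene UMIs, and Prg4, Alox15 and Saa3 together gave 8 or more UMIs with at least 2 of the genes detected. A UMI is a molecular tag that marks one captured RNA or antibody molecule. Of 8471 barcodes, 7196 had a single hashtag, 5348 passed all limits and 242 (4.53% of those passing) met the gene rule. The study asked what myeloid Jak2V617F does to the aortic wall, and its cells were CD45+ aortic leukocytes from 10 mice. In 5 Jak2V617F Myel mice a Jak2V617F Flex allele was recombined by LysM-Cre, which is driven by the lysozyme M promoter and is active in myeloid cells. The other 5 were Jak2WT mice, without the mutation. Mice were littermates of both sexes on the C57BL/6 background, and the age at this collection is not given in the sources used here. All mice received anti-CD45.2 by vein shortly before death so that circulating cells could be left out of the sort. Aortas were digested with collagenases, hyaluronidase and DNase. Whether the cells of this population lay in the vessel wall or in tissue around it was not tested. Hashtags 1 to 5 marked the Jak2WT mice, 6, 8 and 10 Jak2V617F Myel mice with aortic dilation, and 7 and 9 Jak2V617F Myel mice with an aneurysm; here a mouse bears the number of its hashtag. The cells were pooled for 1 Chromium run that gave transcripts, surface antibodies and hashtags of the same barcodes, and no barcode was listed more than once.

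Macrophages of the pleural, peritoneal and pericardial cavities are known to fall into large and small types. The large type is long-lived, depends on the transcription factor Gata6, carries F4/80, CD11b and Tim4 at high levels, and expresses coagulation factors and Alox15, while the small type carries MHC class II and is replenished from monocytes. Prg4 encodes lubricin, a lubricating glycoprotein of serous and joint surfaces, Alox15 a lipoxygenase that oxidises polyunsaturated fatty acids, and Saa3 an acute-phase apolipoprotein made by macrophages.

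The 3 genes of the rule are given as a description only, because they chose the cells. Prg4 lay at 4946, 5143, 5633, 5586, 4926 and 6115 CPM, the UMIs of a gene scaled to an equal total of gene UMIs, in mice 1, 2, 5, 8, 9 and 10, in which at least 5 cells were found. Over the same mice Alox15 ranged from 1493 to 2209 CPM and Saa3 from 1600.3 to 4913 CPM. Single cells held a median of 122.5 Prg4, 40.5 Alox15 and 45.5 Saa3 UMIs, and 229 of the 242 held all 3 genes, 8 lacked Saa3 and 5 lacked Alox15. The rule divided the barcodes with few cells near its limit: the lowest sums inside were 10, 15 and 25 UMIs against a median of 225, and of 48 barcodes with 2 of the genes but under 8 UMIs the highest had 6 and 38 had 2. Another 8 barcodes reached 8 UMIs from 1 gene. The other markers of the label, Serpinb2 and Cd5l, were detected in 98.3% and 95.5% of the cells. The comparison population was 2338 macrophages that had C1qa, C1qb and C1qc at 20 or more UMIs per 10000 and no Prg4 or Alox15 UMI, called C1q macrophages below, and 239 of the 242 Prg4 Alox15 Saa3 cells also reached that C1q level.

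Prg4 Alox15 Saa3 cells were rich in RNA, with a median of 21125 gene UMIs and 3721 genes against 11288.5 UMIs and 2990 genes in C1q macrophages and 5678.5 UMIs in 602 B cells. Their antibody counts were higher as well, at a median of 3089 UMIs per cell against 1585. Of 323 barcodes that met the gene rule, 67 were left out for more than 1 hashtag, 12 for mitochondrial reads and 2 for low UMIs. No doublet caller other than the hashtags was used, so 2 cells of the same mouse in 1 droplet remain. HTODemux, the hashtag caller of the study's methods, named 31 of the 242 cells (12.8%) doublets and 27.1% of the C1q macrophages. In 11 of the 242 cells the second hashtag had over 100 UMIs, among them 4 of the 6 cells of mouse 9 and 2 of the 7 of mouse 2. These 11 cells carried genes of other cells at higher levels than the rest, with Mrc1 at 6.15 against 0.612, H2-Aa at 17.9 against 1.25 and Cd3g at 0.638 against 0.00203 UMIs per 10000. Several counts below are given also without barcodes of this kind, without mice 5 and 10 or without a single mouse. A cell's mouse of origin rests on the hashtags, and in the 43 cells outside mice 5 and 10 the top hashtag had a median of 238 UMIs against 6 for the second. In 23 of these 43 cells the second hashtag was that of mouse 5 or 10. The same share among other barcodes of these mice was not counted, so the 23 are a description. In 6 of the 43 the second hashtag had over 100 UMIs.

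The promoters of 3 of the 5 marker genes were matched in the RefSeq sequences of build GRCm38.p6. They are shown because Gata6 and Cebpb transcripts, given below, were higher in these cells and code for factors that bind GATA and C/EBP motifs. Each window runs from 250 bases before the transcript start to 50 after it, 5′ to 3′ on the gene's strand, and capitals mark motif letters on either strand. The GATA motif was searched as AGATAA, with TGATAA counted likewise. The motif of C/EBP factors was searched as TTGCNNAA, and no printed matches of different motifs overlap.
Saa3, chr7:46715627-46715926, minus strand: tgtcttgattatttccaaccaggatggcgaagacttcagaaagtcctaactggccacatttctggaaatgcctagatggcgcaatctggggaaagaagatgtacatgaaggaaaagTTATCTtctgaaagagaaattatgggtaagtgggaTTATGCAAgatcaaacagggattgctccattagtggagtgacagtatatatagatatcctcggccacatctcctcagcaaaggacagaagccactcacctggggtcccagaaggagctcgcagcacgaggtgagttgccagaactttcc
Cd5l, chr3:87357631-87357930, plus strand: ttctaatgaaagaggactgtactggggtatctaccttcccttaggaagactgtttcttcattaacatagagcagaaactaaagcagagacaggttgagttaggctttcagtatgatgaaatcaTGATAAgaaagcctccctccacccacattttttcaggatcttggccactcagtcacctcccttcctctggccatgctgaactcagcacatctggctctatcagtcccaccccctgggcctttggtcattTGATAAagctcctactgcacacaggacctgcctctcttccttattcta
Serpinb2, chr1:107511173-107511472, plus strand: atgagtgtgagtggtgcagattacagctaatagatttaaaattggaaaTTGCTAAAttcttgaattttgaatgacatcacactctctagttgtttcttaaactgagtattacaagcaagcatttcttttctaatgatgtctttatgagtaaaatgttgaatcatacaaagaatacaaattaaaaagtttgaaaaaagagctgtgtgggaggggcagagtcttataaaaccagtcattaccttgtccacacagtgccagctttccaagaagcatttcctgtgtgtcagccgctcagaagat
The Saa3 window held 1 GATA and 1 C/EBP match, the Cd5l window 2 GATA matches, and the Serpinb2 window 1 C/EBP match. Serpinb2 has another start, whose window at chr1:107511260-107511559 held 1 GATA and 1 C/EBP match and is not printed. Among all 32851 promoter windows, 18.6% held the GATA letters and 10.8% the C/EBP letters. Of 20 windows of genes of the large cavity macrophage list, 10% held each, beside 10.1% and 8.73% of the windows of all genes tested. A match is a description of the letters only. The 5 marker genes lie, in GRCm38, at chr1:150449412-150466165 (Prg4), chr11:70344152-70352031 (Alox15), chr7:46711998-46715700 (Saa3), chr1:107511423-107535478 (Serpinb2) and chr3:87357881-87371073 (Cd5l).

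Most Prg4 Alox15 Saa3 cells came from 2 mice, 1 of each genotype. The Jak2WT mice 1 to 5 held 5, 7, 3, 0 and 88 of them, or 1.78%, 1.99%, 0.612%, 0% and 15.02% of their barcodes past the limits. The Jak2V617F Myel mice 6 to 10 held 4, 3, 15, 6 and 111, or 1.04%, 0.322%, 3.87%, 0.613% and 13.5%. Mice 5 and 10 stood above all others and together supplied 199 of the 242 cells (82.2%), and the 95% Clopper-Pearson intervals of mouse 5 (12.2% to 18.2%) and mouse 10 (11.3% to 16.1%) lay above those of the other 8 mice. Mouse 4 had none among 135 barcodes, which allows a share of up to 2.22% taken as 3 counts, or 2.70% as the upper Clopper-Pearson bound drawn in the plot of shares. These intervals and this floor cover counting error only, and because the sort was set to give about equal cells of both genotypes, a share describes the sorted cells. The mice with an aneurysm, 7 and 9, had among the lowest shares, yet so had mice 3 and 4 of the Jak2WT group. No difference between the genotypes was detected: the mean share was 3.88 ± 6.28% in Jak2WT and 3.87 ± 5.58% in Jak2V617F Myel mice (SD, n = 5 each), a difference of -0.00588 percentage points (exact permutation test over mice, two-sided, p = 1). Without mouse 5 the difference was 2.78 points and without mouse 10 it was -2.42 points, so its sign changed with 1 mouse, and without both it was 0.363 points (exact permutation p = 0.771). As a share of these cells plus C1q macrophages, mice 5 and 10 held 31.0% and 25.5%, and the highest of the others was mouse 8 with 7.94%.

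**Figure D1:**
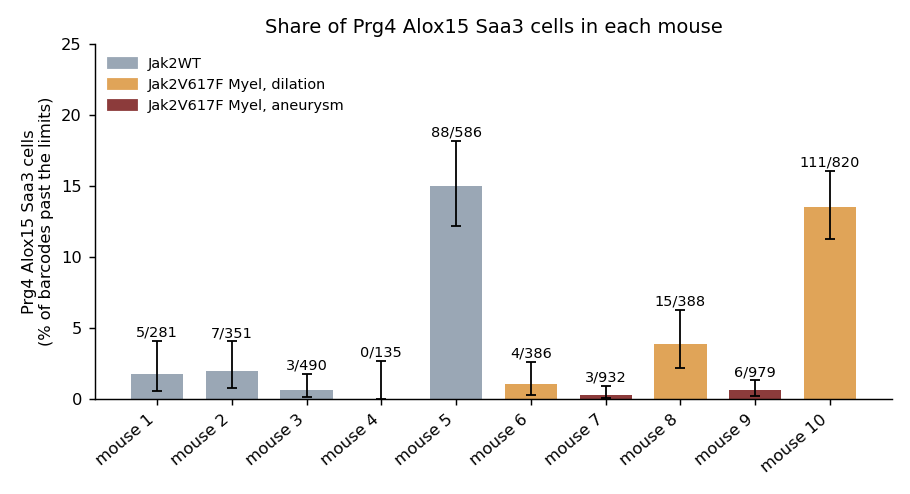
Share of Prg4 Alox15 Saa3 cells among barcodes past the limits, in percent, for each of 10 mice, with 95% Clopper-Pearson intervals and the cell counts above the bars; colours give genotype and aortic phenotype. Mouse 5 (Jak2WT, 15.02%) and mouse 10 (Jak2V617F Myel, dilation, 13.5%) stand above the other 8 mice, of which the highest is mouse 8 at 3.87%.

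Gene expression was then compared with C1q macrophages of the same mice. UMIs were summed per mouse and class in the 6 mice with at least 5 cells (mice 1, 2 and 5 of Jak2WT, 8, 9 and 10 of Jak2V617F Myel), and edgeR's quasi-likelihood test with the mouse as a block and Benjamini-Hochberg adjustment gave all adjusted p-values below. Of 8953 genes tested, 990 (11.1%) were raised and 1231 (13.7%) were lowered at an adjusted p under 0.05. The mice of the 2 classes did not overlap in 364 genes that were higher (4.07%) and 881 that were lower (9.84%). Scaled to total UMIs without TMM factors, 699 were raised and 2152 lowered, and the median log2 fold change of all genes was -0.32 in place of -0.07. The cells were chosen by 3 transcripts of the same libraries, so these p-values compare the size of a difference with the spread between mice and do not test whether the population exists. Mouse 5 and mouse 10 carry most of the cells, and without both 371 genes were raised and 254 lowered of 7503 tested. List counts below stand beside these 11.1% raised and 13.7% lowered of all genes, and a share near them says nothing particular of a list. The lists also share genes, so their counts are not independent. Raised large cavity genes recur in the lists of adhesion (Selp, Icam2, Itga6, Itgam, Cd9), transcription factors (Gata6, Rarb) and complement (Vsig4, Itgam). Others recur in apoptotic cell uptake (Timd4, Cd93), lipid handling (Fabp4), arginine metabolism (Hdc), chemokines (Cxcl13) and coagulation. List counts cover the genes that passed the filter on low counts, and a gene high in 1 class can pass through that class alone. All genes of the large cavity, small cavity, vessel wall and MHC class II lists passed, but only 11 of 16 coagulation genes, 6 of 16 acute-phase genes other than Saa3, 13 of 16 genes of apoptotic cell uptake and 9 of 11 cytokine genes.

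The genes of large cavity macrophages were higher without exception in the list examined. This list, like the others, was chosen with earlier results of these data known, so its count is a description and no independent test. In it 26 of 26 were raised, with a median log2 fold change of 5.43 against -0.07 over all genes tested. Without mice 5 and 10, 24 of 25 tested were raised, and without barcodes whose second hashtag passed 100 UMIs 26 of 26. Gata6, the transcription factor that defines these cells, lay at 37.6, 50.2, 55.8, 53.0, 28.5 and 56.2 CPM in mice 1, 2, 5, 8, 9 and 10 and at 1.24, 0, 0.473, 0.449, 0.863 and 0 CPM in their C1q macrophages. All 6 mice were higher by a wide margin, with no overlap (6.52 ± 0.44 log2 units, SE; adjusted p = 1.59e-08). At 3000 UMIs per cell a Gata6 UMI was found in 12.8% of these cells, in 0.171% of C1q macrophages and in none of the B cells, which should lack it; B cells give the level that free RNA in the droplets produces. Selp, which codes for P-selectin, lay at 188, 339, 446, 438, 319 and 425 CPM against at most 2.37 CPM in C1q macrophages. F5, coagulation factor V, was as clear, with 501, 464, 635, 685, 683 and 663 CPM against 0.573 to 1.78 CPM. By edgeR's quasi-likelihood test its change was 9.13 ± 0.24 log2 units (adjusted p = 3.05e-13). At 3000 UMIs per cell an F5 UMI was found in 76.4% of these cells, 0.513% of C1q macrophages and 0.664% of B cells. C1q macrophages were chosen to lack Prg4 and Alox15 UMIs, and the part of that choice in their low values was not tested. The list further held Tgfb2 (8.75), a transforming growth factor, Ltbp1 (9.23), which anchors latent transforming growth factor in matrix, Wnt2 (8.55), a secreted Wnt ligand, and Cxcl13 (8.26), the chemokine that draws B cells.

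Other genes of the list covered a wide range of change. Fn1, which codes for fibronectin, was the most abundant gene of the list at 8554 ± 2109 CPM (SD, n = 6) against 218 ± 124 CPM. Icam2, an adhesion receptor that marks large cavity macrophages, lay at 451, 765, 571, 434, 222 and 535 CPM against 3.44 to 8.99 CPM. Timd4, the phosphatidylserine receptor Tim4, was at 313 ± 105 CPM against 109 ± 28.6 CPM, a log2 difference of 1.71 ± 0.16 (adjusted p = 5.18e-07). Adgre1, the gene of F4/80, and Itgam, that of CD11b, rose by 1.35 and 2.25 log2 units with no overlap between the mice. The smallest change of the list was that of Cd93 (0.90), whose mice overlapped. Mice 3, 6 and 7, with 3 or 4 cells each and no part in the test, held 19, 24 and 23 of the 26 genes above the highest C1q macrophage value of the 6 mice. Among the rest Vsig4, a complement receptor, was at 0 in mice 3 and 6, Hdc, which makes histamine, at 0 in mice 3 and 7, Wnt2 and Cxcl13 at 0 in mouse 3, and Timd4 in mice 3 and 7 at 61.1 and 119 CPM was within the range of C1q macrophages.

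**Figure D2:**
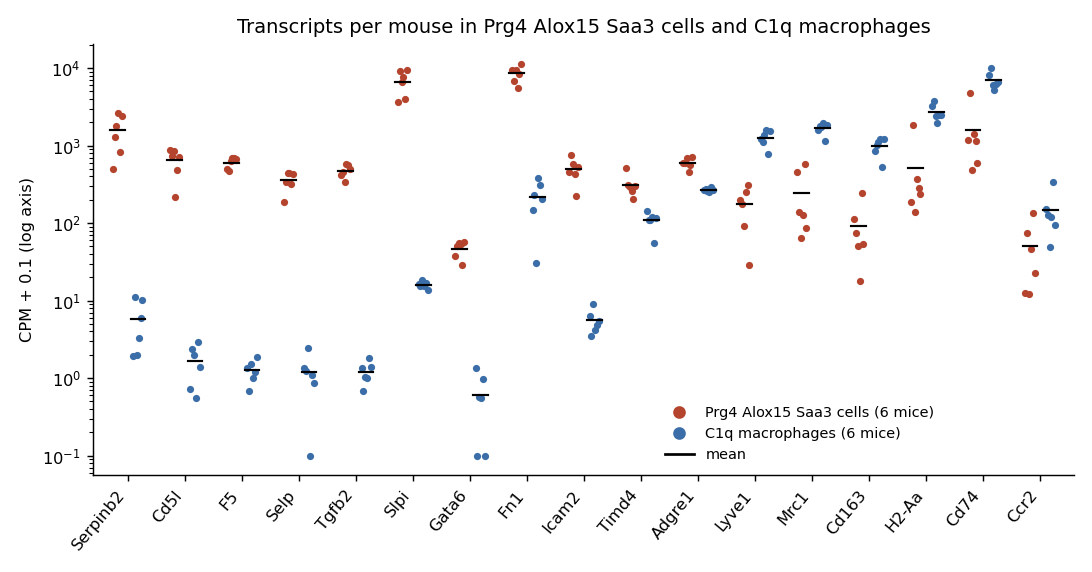
CPM plus 0.1 on a log axis for 17 genes in the 6 mice with at least 5 Prg4 Alox15 Saa3 cells (red) and in C1q macrophages of the same mice (blue), with the mean as a black line. Genes of large cavity macrophages such as F5 and Gata6 lie higher in the Prg4 Alox15 Saa3 cells of every mouse, and Lyve1, Mrc1, Cd163, H2-Aa and Cd74 lie lower.

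Outside that list, the genes with the largest changes among those without overlap were Prtn3, Slpi, Cd5l and Vmn2r26. Slpi, a secreted inhibitor of neutrophil serine proteases, was the most abundant of them, at 3706, 9063, 6582, 7605, 4004 and 9333 CPM in mice 1, 2, 5, 8, 9 and 10 against 13.8 to 18.5 CPM in C1q macrophages (8.81 ± 0.30 log2 units; adjusted p = 3.93e-12). Prtn3, a serine protease of neutrophil granules, was at 165 to 401 CPM against at most 1.02 CPM. Cd5l, a secreted scavenger receptor protein of tissue macrophages, lay at 889, 728, 858, 215, 484 and 720.1 CPM, lowest in mouse 8, against 0.449 to 2.83 CPM. Vmn2r26, a gene of the vomeronasal receptor family, was at 49.4 to 113 CPM against at most 1.24 CPM. Serpinb2, plasminogen activator inhibitor 2, lay at 501, 1292, 1782, 2637, 831 and 2415 CPM and varied 5.27-fold between mice, all above the 1.85 to 10.9 CPM of C1q macrophages.

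Transcription factors and adhesion molecules were raised more often than lowered. Of 16 transcription factors of macrophages tested, 8 were raised and 4 lowered (median 0.42), and 5 and 2 of 15 without mice 5 and 10. Besides Gata6 the raised ones were Klf2 (0.52), Id2 (1.01), Nr4a1 (1.34), Rarb (4.28), a retinoic acid receptor, Id3 (3.59), an inhibitor of helix-loop-helix factors, Bhlhe40 (3.31), which is needed for cavity macrophage renewal, and Cebpb (1.35), a C/EBP factor. Cebpb was the most abundant of them at 2694 ± 577 CPM against 1213 ± 286 CPM. Irf4 (-1.44) and Irf8 (-1.26), interferon regulatory factors, Maf (-2.11) and Spic (-3.29), a factor of iron-recycling macrophages, were lowered. Among 16 adhesion genes 11 were raised and Itgax, the gene of CD11c, was lowered (-2.34), with 0 lowered without mouse 5 or without mice 5 and 10 and 2 without mouse 1 or mouse 9 or without barcodes of a high second hashtag. The raised ones included Itga6 (4.83) and Itgb7 (2.45), both integrin chains, and Selplg (1.56), the ligand of P-selectin, whose gene Selp was raised in the same cells. Vcam1 was at 0, 0, 2.99, 3.53, 336 and 2.96 CPM in mice 1, 2, 5, 8, 9 and 10 and was not called (adjusted p = 0.0954). Only mouse 9, in which 4 of 6 cells had a second hashtag above 100 UMIs, held it at the level of C1q macrophages.

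Genes of blood coagulation, complement and host defence were more often raised than lowered. In the coagulation and fibrinolysis list 8 of 11 genes tested were raised and 2 lowered, with a median of 3.30, and without mouse 10, alone or with mouse 5, the counts were 8 and 1. F10, coagulation factor X, was at 692 ± 194 CPM against 5.84 ± 7.00 CPM, and Thbs1, thrombospondin 1, at 2741 ± 730.2 CPM against 50.9 ± 70.4 CPM. Plau, urokinase (-1.19), and F13a1, the factor XIII subunit made by resident macrophages (-2.29), were lowered, and Tfpi, an inhibitor of the tissue factor pathway, was not called (-0.17 ± 0.33). Of the raised genes F5, F10, Thbs1 and Fn1 also stand in the large cavity list, and Serpinb2 is a marker of the label.

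In the complement list, leaving out C1q, 7 of 11 genes tested were raised and 2 lowered (median 2.25), with 1 lowered without mouse 2, 5 or 10 and 6 raised and 0 lowered of 9 without mice 5 and 10. C4b lay at 1377, 1637, 1048, 1119, 1418 and 1348 CPM in mice 1, 2, 5, 8, 9 and 10 against 92.4 to 226 CPM (3.35 ± 0.20; adjusted p = 4.20e-09). The mice did not overlap, and the same held for C3 (4.05), the central component, Cfb (2.49), factor B, Cfp (2.73), properdin, and Vsig4 (3.25), a complement receptor. C5ar1, the receptor of C5a, was lowered by 0.54 log2 units. The 6 acute-phase and antimicrobial genes that passed the filter were raised, and with no filter 8 of 13 were. The 6 were Slpi, Hp (6.35), which codes for haptoglobin, Wfdc17 (2.05), Mpeg1 (0.92), a pore-forming protein, and the lysozyme genes Lyz1 and Lyz2, which are near copies and may share reads. Lyz2, whose promoter drives LysM-Cre, was at 18105, 9219.8, 24138, 14289, 15542 and 17305 CPM against 4740.4 to 8956 CPM, higher in each mouse. Saa2 and Saa4, relatives of Saa3, had no UMI in the cells of these mice.

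Inflammatory mediators divided by gene. Of 9 cytokine genes tested 5 were raised and none lowered (median 1.24), and 3 of 7 were raised without mice 5 and 10. Il6 lay at 438, 358, 545, 936, 0 and 884 CPM in mice 1, 2, 5, 8, 9 and 10 against 9.88 to 45.4 CPM (4.51 ± 0.58 log2 units; adjusted p = 1.82e-05), with no UMI among the 6 cells of mouse 9 and a clear excess in the other 5 mice. Il1a was higher in all 6 mice, at 113 to 628 CPM against 5.39 to 68.6 CPM (4.22), and so was Osm, oncostatin M (2.64). The count of raised cytokine genes was 3 without mouse 1 or without mouse 5. It was 7 without mouse 9 and 6 without barcodes of a high second hashtag. Tnf rose by 0.91 ± 0.27 with overlap, and Il1b was not called, at 200.3, 2302, 1528, 1536, 410.0 and 2048 CPM against 440.4 to 2258 CPM (adjusted p = 0.191). At 3000 UMIs per cell an Il6 UMI was found in 53.7% of these cells, 2.69% of C1q macrophages and 0.664% of B cells. Whether these transcripts were present in the living aorta or appeared during digestion was not tested.

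Of 15 chemokine genes 3 were raised and 7 lowered (median -0.50), beside 11.1% and 13.7% of all genes tested. The raised ones were Cxcl13, whose level ran from 249.9 to 1045 CPM, and Cxcl1 and Cxcl2, which attract neutrophils. Cxcl2 was among the most abundant transcripts of the cells, at 17443 ± 5216 CPM against 8249 ± 1348 CPM (1.23 ± 0.19; adjusted p = 9.83e-05). The lowered ones were Ccl2 (-1.65), Ccl7 (-2.38), Ccl8 (-3.32) and Ccl12 (-3.39), which attract monocytes, and Ccl3, Ccl4 and Cxcl16. Ccl2 was at 225, 696, 406, 692, 1105 and 429.8 CPM against 1412 to 2439.5 CPM, without overlap. Closely related chemokine genes may share reads. Interferon-stimulated genes were lowered in 5 of 9 tested and raised in none, among them Ifit3 (-3.03) and Bst2 (-0.70), but without mice 5 and 10 none of 7 was called, and 3 of 7 were lowered without barcodes of a high second hashtag and 2 of 7 without mouse 10. In the list of immediate-early and heat shock genes, whose levels are known to move with tissue digestion, 2 of 15 were raised and 3 lowered (median -0.04), near the 11.1% and 13.7% of all genes tested. In this list 6 were lowered without mouse 9 and without barcodes of a high second hashtag, and 1 was raised and 2 lowered without mice 5 and 10. Hspa1a, a heat shock protein gene, was at 738 ± 415 CPM against a mean of 2983 CPM and Nr4a1, a nuclear receptor, at 1286 ± 232 CPM against 582 ± 122 CPM.

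Lipid mediator enzymes were raised in 6 of 13 tested and lowered in 2 (median 0.61), beside 11.1% and 13.7% of all genes tested, with Alox15 left out as a gene of the rule. Ptgis, prostacyclin synthase, lay at 463, 301, 311, 452, 302 and 317 CPM in mice 1, 2, 5, 8, 9 and 10 against 0.898 to 2.84 CPM (7.86 ± 0.26; adjusted p = 2.74e-12). It was the gene of this list that separated the classes most, and a Ptgis UMI was found at 3000 UMIs per cell in 51.7% of these cells, 0.556% of C1q macrophages and 0.498% of B cells. Both cyclooxygenases were raised, Ptgs1 by 1.59 without overlap and Ptgs2 by 2.14 with overlap. Hpgd (-3.20), which breaks prostaglandins down, and Hpgds (-3.38), a prostaglandin D synthase, were lowered, and Alox5, the 5-lipoxygenase, was not called (0.22 ± 0.18). Of the 13, 3 were raised and 2 lowered without mice 5 and 10 and also without mouse 5 alone.

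Uptake and metabolic genes were mixed. Of 13 genes for the uptake of apoptotic cells 7 were raised and 3 lowered. Marco, a scavenger receptor, was raised by 7.52 ± 0.51, with levels from 25.1 to 435 CPM against a highest value of 1.602 CPM, and Msr1 by 1.78. Axl (-1.12) and its ligand Gas6 (-3.18) and Stab1 (-2.32), a stabilin, were lowered. In lipid handling 6 of 14 were raised, such as Fabp4 (5.28), a fatty acid binding protein, and Apoc1 (6.75), an apolipoprotein that ranged from 17.7 to 751 CPM among the mice, and 2 were lowered, Abca1 and Ch25h. The counts were 3 raised and 1 lowered without mice 5 and 10, and 4 and 1 without mouse 2 or mouse 10; 1 was also lowered without mouse 5 or mouse 8. In arginine and polyamine metabolism 3 of 6 were raised, among them Slc7a2 (5.95), a transporter of cationic amino acids, and Hdc (5.20), which makes histamine. Of 13 JAK-STAT genes 2, Osm and Pim1 (0.92), were raised, beside 11.1% of all genes tested, and none was lowered, with 1 lowered without mouse 1, 2 or 9 or without barcodes of a high second hashtag, and 1 of 12 raised without mice 5 and 10. Jak2 itself was at 32.6 ± 10.8 CPM against 34.0 ± 8.30 CPM (log2 fold change 0.33 with TMM factors; adjusted p = 0.335). The counts do not tell the mutant Jak2 allele from the normal one.

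Genes of resident macrophages of the vessel wall and genes of antigen presentation were lower. In the vessel wall list 12 of 16 were lowered (median -2.50), also without mice 5 and 10 and without barcodes of a high second hashtag, beside 13.7% lowered of all genes tested. Lyve1, a hyaluronan receptor, lay at 200.3, 176, 92.1, 251, 308 and 28.3 CPM in mice 1, 2, 5, 8, 9 and 10 against 773 to 1568 CPM (-2.96 ± 0.39; adjusted p = 2.47e-05). Mrc1, the mannose receptor, was at 463, 138, 64.7, 127, 575 and 86.6 CPM against 1153 to 1949 CPM, and Cd163, the haemoglobin scavenger receptor, at 92.5 ± 81.0 CPM against 992 ± 269 CPM. In none of these did the mice overlap, and mouse 9, with most of its cells of a high second hashtag, was the highest in each. At 3000 UMIs per cell Lyve1 was found in 7.85% of these cells and 4.98% of B cells, against 62.3% of C1q macrophages. Trf, transferrin (1.16), and Pf4, platelet factor 4 (0.61; adjusted p = 0.04996), of the same list were raised, but the call of Pf4 was kept in only 4 of 18 alternatives and lost in 14, among them DESeq2, scaling without TMM factors, HTODemux and leaving out mouse 1, 2, 5, 9 or 10. The level of Pf4 was 3856, 2809.8, 4855, 1928, 3491 and 5060.0 CPM, high in both classes.

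Small cavity macrophage genes were lowered in 11 of 12 (median -2.17), and Il1b was not called. Without mice 5 and 10, 8 of 12 were lowered, and without barcodes of a high second hashtag 10 of 11 were lowered and 1 raised. The list shares Cd74, H2-Aa, H2-Ab1, H2-Eb1 and Ciita with the list of MHC class II genes, in which 8 of 9 were lowered (median -2.23), 6 of 9 without mice 5 and 10 and 7 of 8, with 1 raised, without barcodes of a high second hashtag. H2-Aa, an MHC class II chain, was at 188, 1850.2, 139, 371, 285 and 240.4 CPM against 1935 to 3777 CPM (-2.80 ± 0.33; adjusted p = 6.86e-06). Mouse 2 stood apart at 1850.2 CPM, next to the lowest C1q macrophage value, and 2 of its 7 cells had a second hashtag above 100 UMIs. Ccr2, the receptor of monocyte-attracting chemokines, was at 12.5, 75.3, 11.9, 45.9, 137 and 22.4 CPM against 48.7 to 337 CPM, lower within each mouse but with overlap between them (-1.46 ± 0.22; adjusted p = 9.79e-05). Retnla was lowered (-1.53; adjusted p = 0.0349) and varied from 85.4 to 2358 CPM.

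The 10 largest falls without overlap included 4 haemoglobin genes, with Hba-a2 and Hba-a1 first. Hbb-bs lay at 50.1, 18.8, 31.9, 35.3, 22.8 and 33.0 CPM against 266 to 3212 CPM, and Hba-a2 (-5.99), Hba-a1 (-5.89) and Hbb-bt (-5.25) fell alike; within each pair, alpha and beta, the genes are near copies and may share reads. The macrophage values rested on few cells, since 22 C1q macrophages with 100 or more Hbb-bs UMIs held 96.0% of all Hbb-bs UMIs of that class, and no Prg4 Alox15 Saa3 cell had more than 5. Even at equal depth a Hbb-bs UMI was found in 9.50% of these cells, 15.2% of C1q macrophages and 18.6% of B cells, so shares gave no order above the B cell level. The others were P3h2 (-5.27), a prolyl hydroxylase of collagens, Ms4a14 (-5.21), Igsf9 (-5.01), Siglech (-5.00), a sialic acid binding lectin, Ccn1 (-4.92), a matrix protein, and Slc14a1 (-4.84), a urea transporter. Igsf9 and Ms4a14 had a UMI in 1 mouse each, so the size of their fall depends on the fit. Siglech had no UMI in 3 of the 6 mice and 11.4 CPM in mouse 9 against 14.0 to 49.2 CPM in C1q macrophages. That level in mouse 9 rests on very few UMIs.

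**Figure D3:**
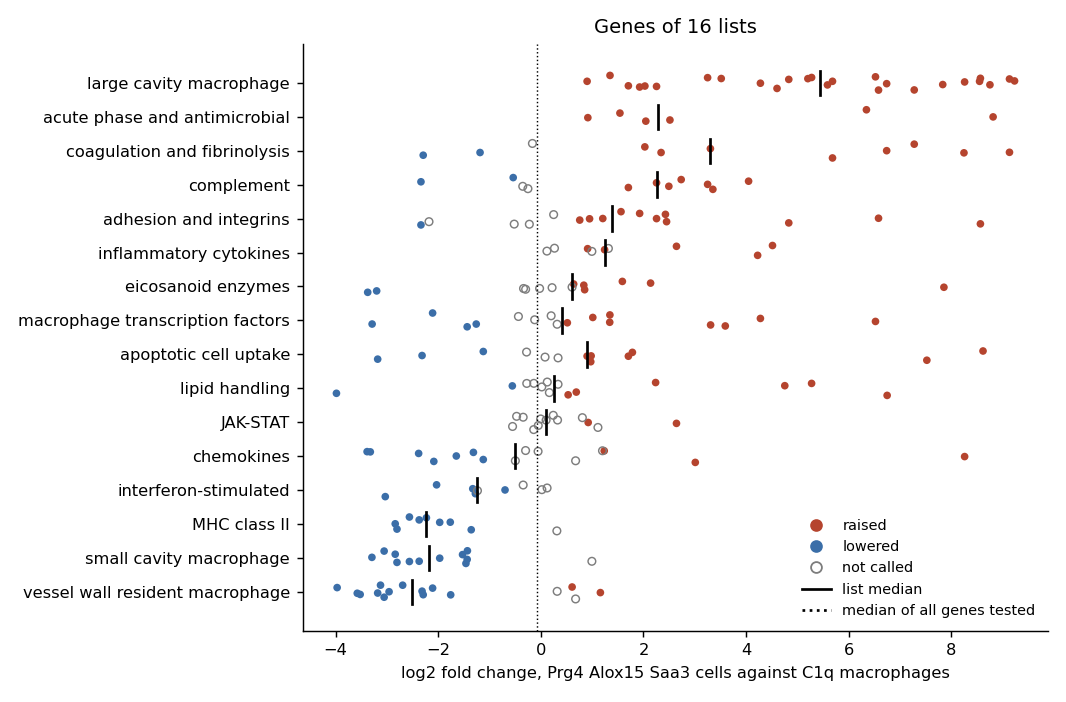
Log2 fold change of each tested gene of 16 lists between Prg4 Alox15 Saa3 cells and C1q macrophages of 6 mice; red and blue points were raised or lowered at an adjusted p under 0.05, open points were not called, black bars are list medians and the dotted line is the median of all genes tested. The large cavity list lies wholly to the right, with a median of 5.43, and the MHC class II, small cavity and vessel wall lists lie mostly to the left.

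Markers of other cell types differed by list. Of 12 mesothelial genes, 11 had no UMI in the cells of the 6 mice, Wt1 and Msln among them, and the summed level of the list was at most 12.5 CPM. The eosinophil genes Epx, Prg2, Ccr3 and Ear6 had none, although Alox15 is also a gene of eosinophils, and Cd24a was raised (3.07). Of the alveolar macrophage genes Ear1, Car4, Fabp1, Krt79 and Cidec had none, Marco was raised, and Pparg and Ear2 were lowered, with 0 lowered without mouse 10 and 1 of 2 without mouse 2, without mice 5 and 10 or without barcodes of a high second hashtag. The sum of that list was higher than in C1q macrophages, at 96.8 to 524 against 14.7 to 79.0 CPM, with Marco the most abundant. Neutrophil genes summed to between 75.1 and 177 CPM, with Csf3r the most abundant and Cxcr2 and Ltf at 0, against 59.6 to 371 CPM in C1q macrophages; of 4 tested, Csf3r, the receptor of a granulocyte growth factor, was raised (2.65) and S100a9 and Mmp9 were lowered, with 1 lowered without mouse 2 or mouse 9, and 2 raised and 1 lowered without barcodes of a high second hashtag. T cell genes summed to a median of 6.02 CPM but 295 CPM in the highest mouse, and B cell genes to a median of 68.1 and at most 724 CPM, with Igkc the most abundant. Of 5 B cell genes 4 were lowered, but 1 without mouse 10 or without mice 5 and 10 and 2 without mouse 5. None of 5 T cell genes was called, but 3 of 3 were lowered without mouse 9, 2 of 5 without mouse 2 and 1 of 1 without barcodes of a high second hashtag. Of 6 monocyte genes 2 that large cavity or acute-phase lists also hold, Hp and F10, were raised and Plac8, Ccr2 and Spn were lowered. The monocyte list summed to between 664 and 1219 CPM against 168 to 418 CPM, with F10 the most abundant and Ace at 0. Only 1 monocyte gene was lowered without mice 5 and 10. Their part in the results was not tested, beyond the counts given without barcodes of a high second hashtag. Endothelial genes summed to at most 22.8 CPM, with Cdh5, Tie1 and Cldn5 at 0. Fibroblast genes summed to at most 51.3 CPM against 104 to 307 CPM in C1q macrophages. Both fibroblast genes tested, Dcn and Gsn, were lowered, but 1 of 2 without mice 5 and 10. All 3 dendritic cell genes tested, Itgax, Cd209a and Ccr7, were lowered, but 1 of 2 without mice 5 and 10. The 1 mast cell gene tested, Mcpt4, was not called. Among platelet genes Pf4 supplied nearly the whole sum and Tubb1 was at 0.

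Surface antibodies, counted in a library of their own, were compared in the same way. Of 72 antibodies tested, 12 (16.7%) were raised and 15 (20.8%) lowered against C1q macrophages of the same 6 mice by edgeR's quasi-likelihood test. The split moved with the scaling: with total counts 3 were raised and 30 lowered, and with counts per cell 16 and 8. Under all 3 scalings 3 antibodies were raised and 8 lowered. Those named first below were among these, a choice made after their values were seen. In 8 antibodies (11.1%) the mice did not overlap and were higher, and in 0 lower. CD11b, the integrin chain of Itgam, lay at 2444, 3011, 1963, 1701, 3251 and 2414 UMIs per cell in mice 1, 2, 5, 8, 9 and 10 against 180.1, 268, 172, 261, 288 and 268 in C1q macrophages. Every mouse was higher without overlap (3.01 ± 0.28 log2 units; adjusted p = 3.20e-06). TIM4 was at 274, 245, 169, 97.9, 263 and 248 UMIs per cell against 19.3 to 39.8 (2.43; adjusted p = 1.05e-05), and F4/80 at 20.6, 27.3, 20.3, 6.67, 27.2 and 27.3 against 2.65 to 4.28 (2.15; adjusted p = 1.81e-04), with mouse 8 the lowest for both. These 3 are surface proteins of large cavity macrophages, and their transcripts Itgam, Timd4 and Adgre1 were raised in the same mice.

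Of the 8 antibodies lowered under all scalings, IA/IE, which detects MHC class II, was at 64.6, 324, 49.0, 44.3, 245 and 59.9 UMIs per cell against 452, 710.2, 349, 354, 296 and 402 (-2.48; adjusted p = 1.05e-05). Mice 1, 5, 8 and 10 lay between 44.3 and 64.6, while mice 2 and 9 were several times higher and mouse 2 reached into the range of C1q macrophages. CD163 showed the same, with 79.2, 222, 58.9, 44.5, 776 and 91.5 UMIs per cell against 403 to 848 and mouse 9 in the range of C1q macrophages (-2.63; adjusted p = 1.27e-04). CD11c (-2.19), CD64 (-2.09), an Fc receptor, CD169 (-1.84), a sialic acid receptor of macrophages, CX3CR1 (-1.82), the fractalkine receptor, and CD63 (-1.44) were also lowered. Without mice 5 and 10, 3 antibodies were raised and 4 lowered, and without barcodes with a second hashtag above 100 UMIs, which also removed mouse 9, 16 were raised and 26 lowered. CD14 (0.93), CD80 (0.93), CD95 (0.86) and CD137L (1.21) were raised without overlap but not called with total counts. The isotype control Rat IgG1, which should bind nothing, was also raised (1.13; adjusted p = 0.0190), and the hamster control had a log2 fold change of 0.72 (adjusted p = 0.0888). The changes of CD14, CD80, CD95 and CD137L were of about the size of that of Rat IgG1. Of 75 antibodies listed, 73 had a count.

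**Figure D4:**
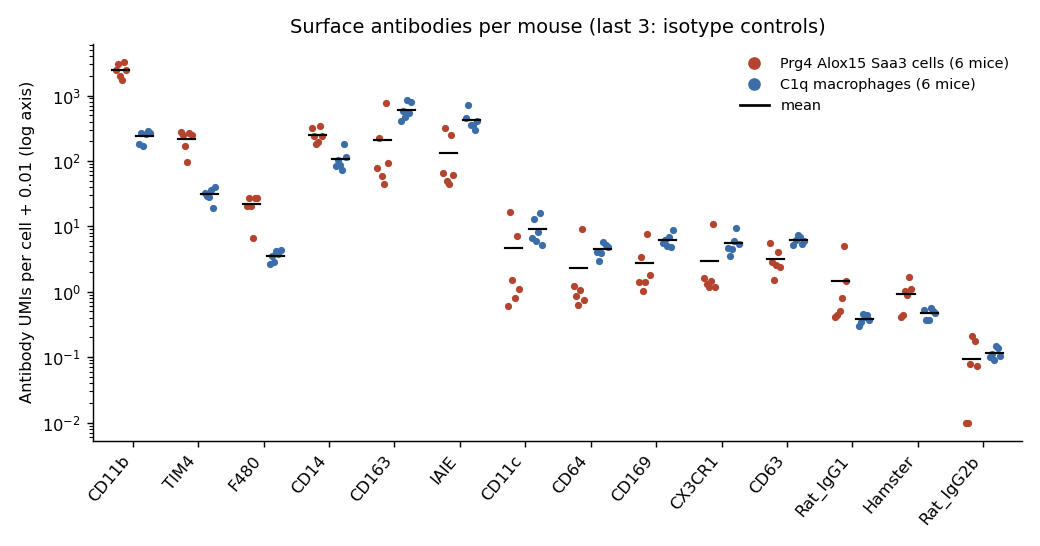
Antibody UMIs per cell plus 0.01 on a log axis in Prg4 Alox15 Saa3 cells (red) and C1q macrophages (blue) of 6 mice, with means as black lines; the last 3 are isotype controls. CD11b, TIM4 and F4/80 are higher in every mouse, and IA/IE, CD163 and the following antibodies are lower in most mice, with 1 or 2 high mice among the Prg4 Alox15 Saa3 cells.

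Within Prg4 Alox15 Saa3 cells no gene passed the test between the genotypes by edgeR. Of 2883 genes tested over 3 Jak2WT and 3 Jak2V617F Myel mice, 0 were called by edgeR, 76 (2.64%) had an unadjusted p under 0.05, and DESeq2 called 1, Lyz1. The smallest adjusted p, 0.712, was that of Lyz1, at 689 to 1355 CPM in Jak2WT and 2016 to 5176 CPM in Jak2V617F Myel mice (1.95 ± 0.38 log2 units), and it was named here after its value was seen. Lyz2, its near copy, in which LysM-Cre is inserted, was at 17154 ± 7504 and 15712 ± 1515 CPM, and the part of the insertion and of shared reads was not tested. Groups did not overlap in 226 of 2883 genes (7.84%), 132 (4.58%) higher and 94 (3.26%) lower in Jak2V617F Myel mice. The cells were shared unevenly: mouse 5 supplied 88 of the 100 Jak2WT cells in the test and mouse 10 supplied 111 of the 132 Jak2V617F Myel cells. In the 3 mice with at least 10 cells, 6 genes were raised and 10 lowered of 9075 tested, with a lone Jak2WT mouse assumed to vary like the others. Prg4 was at 5241 ± 354 CPM in Jak2WT and 5542 ± 596 CPM in Jak2V617F Myel mice. These levels are a description only, because Prg4 chose the cells, and they do not bear on a difference between the genotypes.

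Proliferation genes were not called in any of 8 tested (median 0.12), but the count moved both ways with the cells used. Without mice 5 and 10, 4 of 5 were lowered, without barcodes of a high second hashtag 2 of 8 were raised, and with at least 10 cells per sum 2 of 10 were raised. Without mouse 5 or mouse 10 alone, 1 of 8 was lowered. At 3000 UMIs per cell, 2 or more of 10 such genes were found in 13 cells, 4 in mouse 5 (4.55%), 7 in mouse 10 (6.31%) and the rest in mice outside the test, and in none of the cells of mice 1, 2, 8 and 9. Over the 6 mice the mean share was 1.81 ± 2.86% against 4.63 ± 1.14% in C1q macrophages (SD), a difference of -2.82 points (exact sign-flip permutation test, p = 0.0938, where the smallest possible is 0.0313). With 5 to 15 cells in mice 1, 2, 8 and 9, a share of 5% was not detectable there. Pooled over all cells the shares were 5.37% and 4.92%, beside 0.664% in B cells.

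Variation among the cells themselves was examined in mice 5 and 10, which had the most cells. The Fano factor, the variance over the mean of a gene's UMIs with every cell thinned to 3000 UMIs, had a median of 1.08 over 2850 genes in mouse 5 and in mouse 10. Ranked by the lower of the values of both mice, Slpi came first, at 32.8 and 59.6, with a UMI in 64.8% of those of mouse 5 and 77.5% of those of mouse 10. Retnla, a resistin-like protein, followed at 24.4 and 33.1, with a UMI in 38.6% and 25.2% of the cells. A Retnla UMI was also found in 23.1% of C1q macrophages and 16.8% of B cells at this depth, so free RNA may supply part of these shares. Apoe (22.1 and 23.4), the gene of apolipoprotein E, was in nearly all cells but at unequal levels. Saa3, a gene of the rule, had 14.1 and 27.4, Cxcl2 had 14.1 and 19.0, and Cxcl1 was close to it. Cd74, the invariant chain of MHC class II, was found in 29.5% and 36.04% of the cells at 19.1 and 11.3. Cxcl13 was found in 14.8% and 20.7% of the cells at 10.2 and 12.2, so its high mean came from a minority of them. Gm42418, which overlaps ribosomal RNA and had the highest value in mouse 5 at 227 against 23.6 in mouse 10, and Malat1, a nuclear RNA, were also among the most variable and can move with RNA quality or rRNA content, whose part was not tested.

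**Figure D5:**
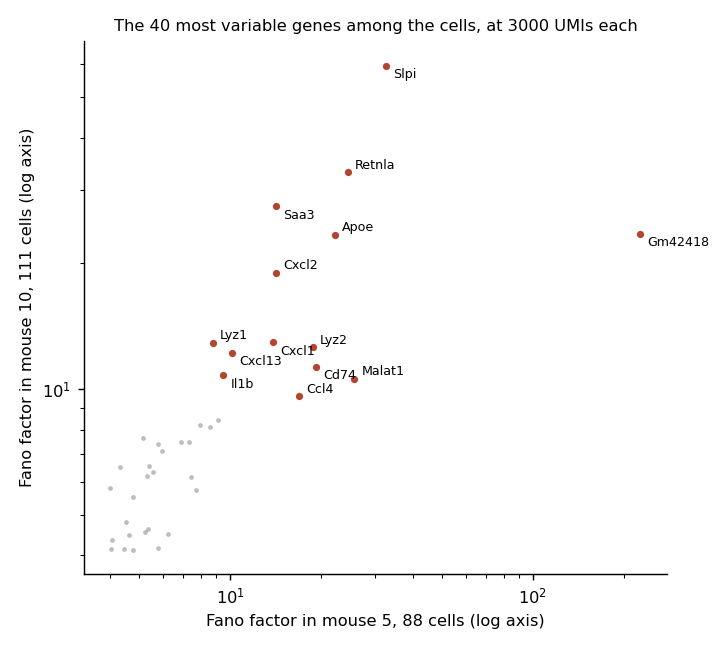
Fano factors on log axes of the 40 most variable genes among Prg4 Alox15 Saa3 cells of mouse 5 (88 cells, horizontal) and mouse 10 (111 cells, vertical), with every cell thinned to 3000 UMIs; the 14 highest in the lower of the 2 mice are named. Slpi, Retnla, Saa3, Apoe and Cxcl2 are high in both mice, and Gm42418 is far higher in mouse 5.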

How the data were processed

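Aortic CD45+ cells of 10 hashtagged mice were pooled and run as 1 CITE-seq library set. The authors deposited whole-number UMI counts of genes, antibodies and hashtags per barcode, which per the file headers came from Cell Ranger 6.0.2, with build mm10 named in the submitters' processing notes. No count was normalized before deposit. The members and the gene lists were chosen with earlier results of these data known. Gene symbols are those of the deposited table, and positions are those of GENCODE annotation on GRCm38, the build called mm10.

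Hashtags gave each barcode its mouse, and 1275 barcodes without a clear top hashtag were left out. Gene and antibody UMIs were summed per mouse and class with at least 5 cells, and tested with edgeR 4.0.16 (R 4.3.3; TMM factors, default filter on low counts, quasi-likelihood test, Benjamini-Hochberg adjustment over all features, adjusted p under 0.05). Standard errors of edgeR changes were taken as the absolute log2 fold change over the square root of the quasi-likelihood F statistic. Prg4, Alox15 and Saa3, and the C1q genes that defined the comparison, were left out of the tests. Both classes came from the same animals, so the mouse was a block. As a check, the deviations of the classes from their means correlated in the same mouse at between -0.22 and 0.30 (1000 genes). Summed UMIs per mouse ran from 79869 to 2366408 in Prg4 Alox15 Saa3 cells, so mice 5 and 10 were measured most precisely. Shares were compared by exact permutation over mice. For shares of cells with a UMI, cells were thinned to 3000 UMIs, which left no cell out. The tests were tried on simulated counts. DESeq2 1.42.0, HTODemux (Seurat 5.3.0), other scalings, limits and left-out mice were the alternatives.

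Named genes were the 10 largest changes in each direction among called genes whose mice did not overlap, and members of the lists. Named antibodies followed the same rule, and other antibodies were named after their values were seen. Replicates are single mice. A few members of the lists and panel are not reported here.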

Additional observations from a re-analysis of the deposited data

Results flagged for a closer look

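In 13 of 38 groups of 5 or 6 mice the highest or lowest mouse lay far from the rest by Dixon's 95% criterion. Chance is expected to give about 5% of groups only where values are continuous. For genes with a UMI in a single mouse, such as Ms4a14 and Igsf9, that UMI alone fixed the flag. The count of 13 is therefore a description and is not set against 5%. Mouse 5 stood out among Jak2WT mice with a share of 15.02% of Prg4 Alox15 Saa3 cells, and mouse 10 among Jak2V617F Myel mice with 13.5%. Mouse 1, with 5 cells, stood out in Hba-a1 at 50.1 CPM.

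Mouse 9, in which 4 of 6 cells had a second hashtag above 100 UMIs, was the highest mouse in most of the others. Its cells had 5.69 CPM of Igsf9 and of Slc14a1 and 11.39 CPM of Siglech. Those gene levels rest on very few UMIs, since the cells of mouse 9 held 175593 gene UMIs in all. The cells of mouse 9 also had 776.5 CD163, 9.17 CD64, 7.67 CD169, 11 CX3CR1 and 5 Rat IgG1 antibody UMIs per cell. The part of the second hashtag in these values was not tested beyond the counts without such barcodes. Ms4a14 was found in a single mouse, at 0.845 CPM. The F4/80 antibody was low in mouse 8, at 6.67 UMIs per cell.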

How the results depend on the processing

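The count of raised large cavity genes and the counts of lowered small cavity, vessel wall and MHC class II genes stayed within 1.5 times their value in all 18 alternatives. Raised genes in the vessel wall list numbered 1 to 3, and in the small cavity and MHC class II lists 0 or 1. Mice 5 and 10 hold most of the cells, sums of 5 to 15 cells give the other 4 mice little depth, and the sex and age of each mouse were not used. Leaving out mice 5 and 10 and limiting the second hashtag to 100 UMIs were chosen after seeing the data, and the causes of the changes below were not tested.

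The difference in share between genotypes, -0.00588 points, changed sign to 0.149 with HTODemux, 0.0328 with a mitochondrial limit of 5%, 0.0856 with 2000 gene UMIs, 0.0564 and 0.0283 with at least 5 and 15 UMIs of the 3 genes, 0.148 with all 3 genes required and 0.363 without mice 5 and 10, and ranged from -2.42 to 2.78 with 1 mouse left out. No setting brought its p under 0.05.

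Against C1q macrophages, leaving out 1 mouse gave 620 to 1232 raised and 660 to 1467 lowered transcripts, and leaving out mice 5 and 10 gave 371 and 254. Total scaling gave 2152 lowered. Without the replicate block 1203 transcripts were raised and 1427 lowered, and 13 antibodies were raised and 13 lowered, within 1.5 times of the values with it. Without mice 5 and 10 the log2 fold change of H2-Oa became 0.19 and that of Pclaf, a proliferation gene, -8.24.

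Raised antibodies numbered 19 with DESeq2, 3 with total scaling, 3 without mice 5 and 10 and 4 to 15 with 1 mouse left out. Lowered antibodies numbered 23 with at least 3 cells per sum, 26 with HTODemux, 30 with total scaling, 8 per cell, 26 with the second hashtag limited, 4 without mice 5 and 10 and 12 to 24 with 1 mouse left out. Among the alternative values of the antibodies called raised without overlap between the mice, 113 kept their call and 20 lost it. Lowered antibodies and isotype controls were not part of this count.

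Between genotypes within the cells, raised transcripts numbered 1 with DESeq2, 13 without a filter on low counts, 6 with at least 10 cells per sum and 2 with the second hashtag limited. Lowered ones numbered 3 without the filter, 10 with at least 10 cells and 0 to 1 with 1 mouse left out. No paired analysis was possible for the genotypes because each mouse has 1 genotype.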
